A study of Plecoglossus altivelis with 2 samples.

Results

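The 179 most abundant components in the mixed tissues of ayu (Plecoglossus altivelis) larvae are described here, out of 70911 components in the assembly. Ayu are fish that move between rivers and the sea. A component is a set of assembled transcripts with 1 shared identifier, and its estimated counts are summed over its transcripts. The members were chosen from the counts themselves. Each library was scaled to the mean of both library totals, and a component was kept when its scaled counts over both libraries came to 100000 or more and the libraries were under 4-fold apart with 0.5 added. The level of each member and its fold between the libraries are therefore descriptions, and no test is made on them.

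The study compared larvae in brackish water, which contained 0.17 M NaCl (10 ppt), with larvae in fresh water, both at 20 to 22 °C in a recirculating system and in groups of 20 fish, with 4 tanks per salinity. After 4 weeks, 9 tissues (gill, kidney, intestine, skin, liver, spleen, muscle, heart and brain) were mixed, and 1 library was made per salinity from polyadenylated RNA. The labels do not state how many fish or tanks entered a mixture, and they name no strain or age beyond the larval stage. With 1 library per salinity there is no replicate check on any difference, and in mixed tissue fewer cells of a type, less tissue in the mixture and less RNA per cell cannot be told apart.

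As background, a few kinds of messenger RNA usually dominate a mixture of fish tissues. They include contractile and metabolic genes of muscle, globin genes of red blood cells, genes of secreted plasma proteins made in liver, digestive enzyme genes, ribosomal protein genes and transcripts of the mitochondrial genome. Salinity acts most directly on gill, kidney and intestine, where ion pumps and channels are known to move salts. The identifiers were not paired with gene names or sequences in the files used here, so no member is given a gene name, a role or a tissue, and the labelled tissues could not be checked against their marker genes.

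The 179 members took a large share of both libraries. Of 72013090 counts in the brackish library they held 28442986, which is 39.5%, and of 72522809 counts in the fresh library they held 30351799, which is 41.9%. In TPM, a unit that scales counts by transcript length and by library size, they held 37.9% in the brackish library and 41.5% in the fresh library. The members were unequal among themselves. In brackish water 21 members held 50% of the members' counts, and in the fresh library 26 did. By TPM the number was 27 in each library. The TPM of single members ran from 148 to 20440.0 in the brackish library, with a median of 1319, and from 188 to 29415 in the fresh library, with a median of 1508.

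The member with the highest mean TPM was the first of a pair with neighbouring identifier numbers and nearly equal values. Component comp127663_c0, with 1 transcript of 605 bases, had 18160.4 TPM in the brackish library and 29110.2 in the fresh library. Component comp127664_c0, with 1 transcript of 601 bases, had 17699 TPM in the brackish library and 29415 in the fresh library. The counts of both were higher in the fresh library, 1.69-fold for the first and 1.75-fold for the second after TMM scaling (a factor per library that balances the bulk of the features). Whether the pair share sequence, and so reads, could not be seen from the files.

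Next came comp51323_c0, of 954 bases, with 12959 TPM in the brackish library and 17595 in the fresh library. Component comp113125_c0, of 4632 bases, had the highest TPM of all members in the brackish library, 20440.0, but stood at rank 16 of the members in the fresh library, with 5035. Component comp117701_c0, of 1835 bases, moved the other way, from 5204 TPM and rank 14 in the brackish library to 16486 TPM and rank 4 in the fresh library. The short component comp51322_c0, of 396 bases, had 9528 TPM in the brackish library and 8420.1 in the fresh library, 1 of the abundant members with close values. Component comp125337_c0, with 8 transcripts of up to 999 bases, had 8904 TPM in the brackish library and 5831 in the fresh library. The remaining one of the 8 highest, a member with 1 transcript of 673 bases, had 5066 TPM in the brackish library and 10859 in the fresh library.

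**Figure D1:**
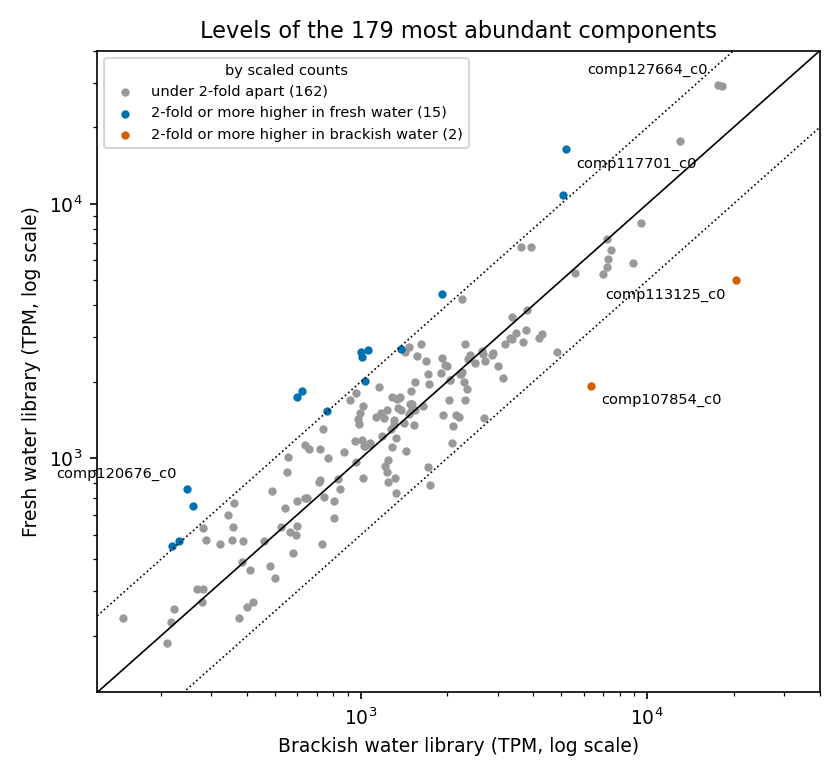
Each point is 1 of the 179 members, with its TPM in the brackish water library on the x axis and in the fresh water library on the y axis, both on log scales. The solid line marks equal values and the dotted lines 2-fold; colours follow the scaled counts, by which 15 members were at least 2-fold higher in the fresh library and 2 in the brackish library.

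The order of the members by TPM was partly kept between the libraries. Of the 10 highest members, 6 were shared, of the 20 highest 16, and of the 50 highest 37. The median member moved by 12 ranks and the furthest by 80. Across the 179 members the log2 TPM values of the libraries correlated at 0.90 (Pearson) and 0.88 (Spearman), and the log2 scaled counts at 0.85 and 0.73. These correlations are across components of the same 2 libraries, and the limit on the fold narrows the spread between them. The TPM values of both libraries are scaled by the same transcript lengths, and the count minimum limits the range of counts. The correlations in the 2 units are therefore not like for like.

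Members were chosen by counts, which grow with length, so a high TPM alone did not make a member. A further 14 components had a mean TPM at or above the members' median of 1392. Of these, 13 were under the count minimum, with a median length of 505 bases for their longest transcript. The other was excluded by the fold. Within the members, longer components had lower TPM (Pearson -0.61 and Spearman -0.64 on log2 values across 179 components), which the count minimum itself favours. At the extremes of the longest transcript per component, comp127667_c0 stood lowest, at 368 bases, with 7483 TPM in the brackish library and 6603 in the fresh library. Component comp107617_c0 had the longest, of 13652 bases, with 211 TPM in the brackish library and 188 in the fresh library. Its direction depended on the unit, with a log2 fold, fresh over brackish, of 0.11 by scaled counts and -0.17 by TPM.

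Length and the number of transcripts were not used to choose the members. The longest transcript had a median of 1377 bases in the members. It was 2477 bases in the next class of abundance, which is 1569 components with 10000 to 100000 scaled counts and under 4-fold apart, and 1123 bases in all 31872 components with at least 100 scaled counts. Longest transcripts under 1000 bases made up 64 of the 179 members (35.8%), against 11.8% of the next class. Among all components with at least 100 scaled counts the share was higher, 44.2%. Members also held few transcripts. Of the 179, 140 (78.2%) held 1 transcript, against 46.0% of the next class and 51.5% of the components with 100 scaled counts or more. A further 18 members held 2 transcripts, 7 held 3, 10 held 4 to 9 and 4 (2.23%) held 10 or more. In the next class 18.6% held 10 or more, and of the components with 100 scaled counts or more 6.47% did.

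**Figure D2:**
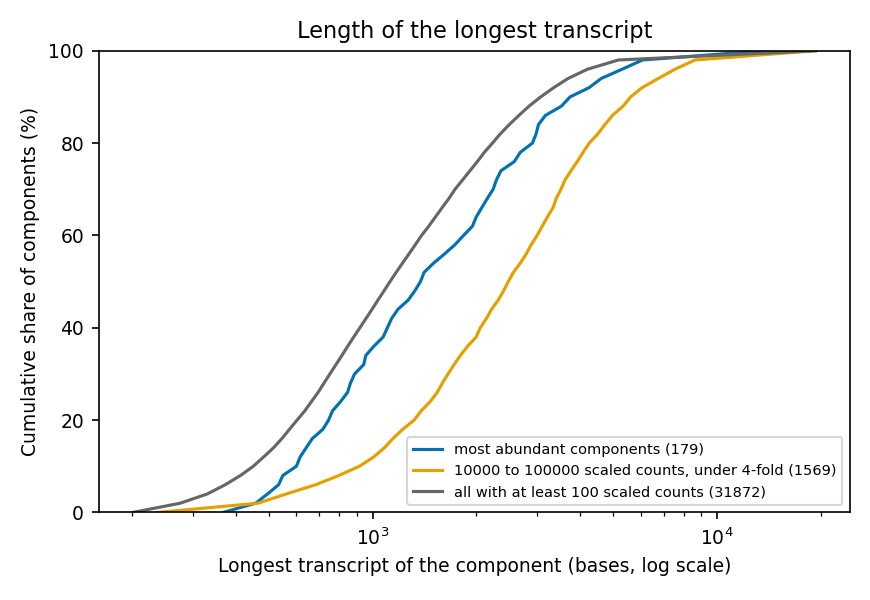
The curves give the cumulative share of components (y axis, %) whose longest transcript is at most the length on the x axis (bases, log scale). The 179 members, with a median of 1377 bases, lie to the left of the next class of abundance, with 2477 bases.

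Most members, 162 of the 179, were under 2-fold apart between the salinities by TMM-scaled counts. Within 1.2-fold were 71 members (39.7%), against 39.7% of the components with 100 scaled counts or more and 51.5% of the next class. Of the 11321 components with 1000 to 10000 scaled counts, 53.3% were. The 71 members took 13.6% of all counts in the brackish library and 13.3% in the fresh library. The 3 members closest to equal were comp51360_c1, with 61360 counts in the brackish library and 61571 in the fresh library, comp87267_c0, with 65862 and 66716, and comp127674_c0, with 54101 and 54829. These were also the 3 members whose exact (Clopper-Pearson) 95% interval of the fold included no difference. At this depth such an interval is narrow, with a median half-width of 0.014 on the log2 scale, and it covers counting error only.

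At 2-fold, 17 members were apart, which is 9.50%, against a background of 12.6% of all 31872 components compared and 4.72% of the next class. In fresh water 15 were higher (background 6.79%) and in the brackish library 2 were higher (background 5.86%). The 4-fold limit takes the furthest components out of the members but not out of the background. The background also reaches down to 100 scaled counts, and for 10109 of its components the interval of the fold included no difference. Of the 11321 components with 1000 to 10000 scaled counts, 3.76% were 2-fold apart and 14.8% were 1.5-fold apart. At 1.5-fold, 56 members (31.3%) were apart, against a background of 30.2% and 17.5% of the next class. Of these 56 members, 45 were higher in the fresh library (background 15.8%) and 11 in the brackish library (background 14.4%).

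The largest folds toward fresh water were those of comp117701_c0 and comp120676_c0. Component comp117701_c0 had 524973 counts in the brackish library and 1767020.1 in the fresh library, 3.34-fold higher in the fresh library (95% interval 3.33 to 3.36). Component comp120676_c0, with 1 transcript of 2486 bases, had 33969 counts in the brackish library and 111291 in the fresh library, 3.26-fold higher (3.22 to 3.30). The 15 members higher in the fresh library ran from 2.05-fold to 3.34-fold. Of these, 12 held 1 transcript, and their longest transcripts measured 673 to 4603 bases. Together they took 2.53% of all counts in the brackish library and 6.90% in the fresh library.

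The 2 members higher in the brackish library were comp113125_c0 and comp107854_c0. Component comp113125_c0 had 5314373 counts in the brackish library and 1390675 in the fresh library, 3.85-fold higher in the brackish library (3.84 to 3.85). This 1 component took 7.38% of all counts in the brackish library and 1.92% in the fresh library. Its TPM was 4.06 times as high in the brackish library, so it lies at the edge of the 4-fold limit. Component comp107854_c0, with 1 transcript of 628 bases, had 204427 counts in the brackish library and 66076 in the fresh library, 3.11-fold higher in the brackish library (3.09 to 3.14). Component comp124744_c0, with 124825 counts in the brackish library and 62808 in the fresh library, stood at the 2-fold limit and passed it when scaled by the totals.

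The members as a whole leaned toward fresh water. By any amount, 119 of the 179 (66.5%) were higher in the fresh library, against 50.6% of the components with 100 scaled counts or more and 54.6% of the next class. By TPM, which shifts every fold of a member with 1 transcript by -0.08 on the log2 scale, 104 of the 179 were higher in the fresh library. The shares of 50.6% and 54.6% are by scaled counts, and no such share by TPM is given to set beside the 104. The median log2 fold, fresh over brackish, was 0.16 in the members by scaled counts and 0.09 by TPM, against 0.01 and -0.06 in all components. In the next class it was 0.05 by scaled counts. Of the members, 23 (12.8%) lay between 0.75 and 1 on the log2 scale, just under 2-fold higher in the fresh library, against 11 from 0.5 to 0.75. In the next class 4.27% lay from 0.75 to 1, and of the components with 100 scaled counts or more 4.47% did. Whether this bin stands out with other bin limits or by TPM was not tested. Of these 23 members, 20 held 1 transcript, and their longest transcripts ran from 601 to 5321 bases with a median of 1777.

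**Figure D3:**
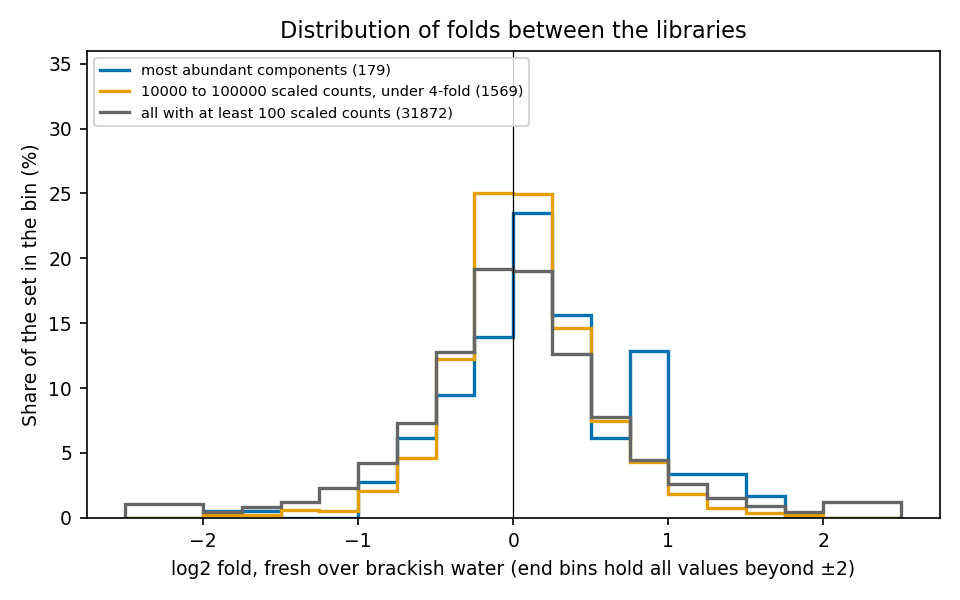
The lines give the share of each set (y axis, %) in bins of the log2 fold, fresh over brackish water, by TMM-scaled counts (x axis); the end bins hold all values beyond 2 in either direction. The 179 members show a second rise from 0.75 to 1, where 12.8% of them lie, against 4.27% of the next class; membership itself ends near 2.

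The share of members higher in the fresh library differed between classes of abundance and length, with no steady order in either. Among the 24 members with 500000 scaled counts or more, 17 were higher in the fresh library and the median log2 fold was 0.56. Among the 46 members with 200000 to 500000 counts, 27 were higher in the fresh library, with a median of 0.13, and among the 109 members with fewer counts 75 were, also with a median of 0.13. By length, 39 of the 50 members of 1000 to under 2000 bases were higher in the fresh library, with a median of 0.27, and 39 of the 64 shorter ones, with a median of 0.07. Of the 34 members of 2000 to under 3000 bases 22 were higher in the fresh library, with a median of 0.29, and of the 31 longer ones 19 were, with a median of 0.11. Across all 179 members the log2 fold had a Pearson correlation of 0.05 with the log2 summed counts and of 0.10 with the log2 length.

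The summed difference in counts was spread over many members toward fresh water and rested mostly on 1 toward brackish water. Over the 119 members higher in the fresh library, the scaled counts were 7636596 higher there, and comp117701_c0 gave 16.2% of that sum. The 5 largest rises together gave 35.4% of it. Over the 60 members higher in the brackish library, the sum of fresh minus brackish scaled counts was -5912155, and comp113125_c0 gave 66.7% of that sum. Both sums leave out components excluded by the fold. With no fold limit, the share of all counts was 44.4% in the brackish library and 43.1% in the fresh library, the reverse of the members' order.

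Only 4 leading identifier numbers were shared by 2 or more members, and these held 10 members. The largest was comp113125, with 4 members whose folds differed. Beside comp113125_c0, comp113125_c6, of 4455 bases, had 1819145 counts in the brackish library and 1608484 in the fresh library, 1.14-fold higher in the brackish library. The log2 folds of comp113125_c2 and comp113125_c4 were -0.30 each, fresh over brackish. Another component of that number, comp113125_c1, was excluded by its fold of 5.30 and took 4.56% of all counts in the brackish library and 0.86% in the fresh library. With all components of that number removed, the remaining 175 members took 34.4% of the remaining counts in the brackish library and 39.6% in the fresh library.

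The other shared numbers held pairs of members with folds of the same direction. Both members of comp125337 were higher in the brackish library, comp125337_c0 1.44-fold and comp125337_c1 1.10-fold. Both members of comp127669 were too, comp127669_c1 with 593555 counts in the brackish library and 562695 in the fresh library and comp127669_c0 with 156314 and 131735. Both members of comp113131 were higher in the fresh library, with log2 folds of 0.17 and 0.10. Components of 1 number can be pieces of 1 assembled region and are not independent.

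In the 39 members with more than 1 transcript, the division of counts between transcripts was close in the 2 libraries. The largest move of any transcript's share of its component had a median of 3.47 percentage points over these members. It was 8.02 points over the 847 components with several transcripts in the next class and 13.4 points over all 14852 with at least 50 counts in each library. No member reached a move of 50 points, against a background of 6.15% and 1.53% of the next class. At 25 points 1 member (2.56%) did, against a background of 24.7% and 7.20% of the next class. At 10 points 8 (20.5%) did, against a background of 61.5% and 39.4% of the next class. In 24 of the 39 members (61.5%) every transcript's share moved by less than 5 points, against a background of 20.0% and 28.9% of the next class. How certain the split of reads among transcripts is cannot be read from the files, and the part that depth plays in these differences was not tested.

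The transcript with the most counts was the same in both libraries for 37 of the 39 members. It differed in comp124744_c0 and comp127117_c0, which is 5.13%, against a background of 23.3% and 19.5% in the next class. In comp124744_c0, with 17 transcripts, the leading transcript held 22.1% in the brackish library and another held 29.6% in the fresh library. In comp127117_c0, with 9 transcripts, the leading shares were 26.3% in the brackish library and 26.9% in the fresh library. The shares in comp124426_c1, which had the most transcripts (40), moved by at most 2.12 points, and its leading transcript held 29.8% in the brackish library and 28.3% in the fresh library. In comp123164_c5, with 16 transcripts, the leading transcript held 43.4% and 42.8%.

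The largest move was in comp126272_c0. Its total was 219547 counts in the brackish library and 354467 in the fresh library. A transcript of 5460 bases had 0 counts in the brackish library, which by counting error allows a share of up to 0.00137%, and 170871 counts in the fresh library, 48.2% of the component. Its other transcript, of 5441 bases, held all counts in the brackish library and 51.8% in the fresh library, with 219547 counts in the brackish library and 183596 in the fresh library. The limit of 0.00137% takes the estimated split of reads between these transcripts as exact. How certain that split is was not tested.

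The next moves were smaller. In comp108138_c0 a transcript of 855 bases held 21.9% in the brackish library and 44.9% in the fresh library. In comp108611_c0 a transcript of 1540 bases held 66.5% in the brackish library and 85.8% in the fresh library. The others of the 6 largest were a transcript of 3285 bases in comp120741_c0, with 28.6% in the brackish library and 14.0% in the fresh library, one of 1480 bases in comp113236_c1, with 54.2% and 67.5%, and one of 13464 bases in comp107617_c0, with 63.7% and 77.1%.

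The members held 338 transcripts, of which 10 had 0 counts in both libraries. Of the 317 with at least 10 counts in a library, 8 (2.52%) had 0 in the other, 5 of them in the fresh library and 3 in the brackish library, against a background of 17.0%. The rule that chose the members allows no such 0 in the 140 members with 1 transcript, which lowers their share against the background. These 8 lay in 6 members, and only the one in comp126272_c0 and one of 567 bases in comp124744_c0, with 1958 counts in the brackish library, had more than 1000 counts. Among transcripts of members with several, 34 of 169 with at least 100 scaled counts (20.1%) were 2-fold apart, 15 being higher in the fresh library and 19 in the brackish library, against a background of 37.0%. Most of the 19 lay in comp124744_c0 and comp124426_c1, whose totals were also higher in the brackish library. Transcripts of 1 component are not independent.

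The authors' deposited table of the comparison called 32 of the 324 member transcripts in it, which is 9.88%, against 0.223% of all its transcripts. Of these calls of the authors' deposited table, 23 were higher in the fresh library (background 0.118%) and 9 in the brackish library (background 0.104%). The 32 calls lay in 23 components. Of the 9, all but those in comp113125_c0 and comp107854_c0 were transcripts of comp124744_c0, so they are not separate members. The authors' deposited table rests on the same 2 libraries that chose the members, and how its p-values were made the sources used here do not state. A call in it also needs a 2-fold difference. Without that condition, 132 member transcripts (40.7%) had an FDR under 0.05 in the authors' deposited table, against a background of 0.371%. Members were chosen for high counts and the background holds transcripts of all counts, so these shares are not like for like. The part that counts play in the gap was not tested.

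In the authors' deposited table the members with 1 transcript show how small a fold reaches its FDR at these levels. Of the 140, 89 (63.6%) had an FDR under 0.05 in the authors' deposited table, and 14 of them were called, 12 being higher in the fresh library. The 75 that were not called had absolute log2 folds from 0.09 to 0.99 in the authors' deposited table. Of the 198 transcripts of the authors' deposited table with an FDR under 0.05 and no call, 100 (50.5%) belonged to members. With 1 library per salinity these values describe the 2 libraries and not the conditions.

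Near the limits of the rule, 13 members had fewer than 110000 scaled counts and 20 components under 4-fold apart had 90000 to 100000. The last inside was comp117520_c0, with 59104 counts in the brackish library and 40981 in the fresh library. The next inside were comp127696_c0, with 46347 and 54587, and comp51334_c0, with 47965 and 53828. Just outside were comp119625_c0, with 46427 and 53265, comp87273_c1, with 41665 and 56242, and comp108038_c0, with 75796 and 21714. At the fold limit, the furthest members were comp113125_c0, 3.85-fold, and comp117701_c0, 3.34-fold, by the totals the rule uses. Just outside were comp113125_c1, 5.30-fold higher in the brackish library, and comp119621_c0, with 25794 counts in the brackish library and 119298 in the fresh library, 4.59-fold higher in the fresh library. The only other components past the count minimum and excluded by the fold were 10.8-fold higher in the brackish library and 12.0-fold higher in the fresh library.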

How the data were processed

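Per the file headers, the deposited files hold estimated counts made by the authors for each assembled transcript, with TPM, FPKM and the percent of its component. Which aligner, assembler and quantifier were used is stated neither there nor in the labels. The log2 fold, p-values and FDR come from the authors' deposited comparison. Counts were summed to components. Estimated counts were rounded to whole numbers for TMM factors (edgeR 4.0.16, R 4.3.3) and DESeq2 1.42.0 size factors. The DESeq2 size factors came out equal for both libraries, so that setting compares the counts unscaled. Folds use a pseudocount of 0.5. Intervals are exact binomial 95% intervals on rounded counts; amplified reads lacking molecular identifiers are not separate molecules, so intervals and the limit of 3 counts for a count of 0 cover counting error only. Library totals were 72013090 (brackish) and 72522809 (fresh) counts. No test was made, with 1 library per group. The scaling and the 2-fold limit were checked on simulated counts with known folds and counting error only. Such counts say nothing of the spread between fish or libraries. No simulated fold lay near 2-fold, so the limit was not checked for members close to it. Members, comparisons and alternatives were chosen with earlier results of these data known. The 1.2-fold limit for close members was set after the data had been seen, in place of a 1.25-fold limit computed first. Members named are those with the highest TPM or counts, largest or smallest folds, largest transcript moves, most transcripts, extreme lengths, shared leading numbers, or places next to a limit; a member of 673 bases is given by its length only, and comp127117_c0 and the 567-base transcript were named after their values were seen.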

Additional observations from a re-analysis of the deposited data

How the results depend on the processing

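The number of members was 338 with a minimum of 50000 scaled counts and 70 with 200000, and stayed within 1.5 times of 179 under the other fold limits and scalings. In brackish water the members' share of counts became 46.8% with a minimum of 50000, 29.6% with 200000, 44.4% with no fold limit and 34.4% without the largest leading number, and in fresh water 49.97%, 30.6%, 43.1% and 39.6%. The share of TPM became 47.2%, 24.3% and 40.02% in brackish water and 50.9%, 27.6% and 42.1% in fresh water under the first 3 of these. Members higher in fresh water numbered 45 at 1.5-fold and 8 with a minimum of 200000, and 11 were higher in brackish water at 1.5-fold. The median log2 fold was 0.092 by TPM, 0.18 with a minimum of 200000, 0.14 with TMM after a filter on low counts and 0.17 without the largest leading number (chosen after seeing the data). Moves of a transcript share numbered 1 at 25 points and 8 at 10 points (the latter chosen after seeing the data), and member transcripts at 0 in 1 library numbered 5 at 50 counts and 2 at 1000. Within 1.25-fold, the limit computed first, lay 86 members (48.0%, background 46.9%), against 71 (39.7%, background 39.7%) within the 1.2-fold limit that replaced it; both were chosen after seeing the data. The rank correlation was 0.88 by TPM and 0.69 with a minimum of 200000, against 0.73. Of 170 recomputed log2 folds of 34 named members, 6 changed sign, in 4 members, of which 0 were 2-fold apart: comp107617_c0 went from 0.11 to -0.17 by TPM, comp87267_c0 from 0.0096 to -0.069 by TPM and -0.011 with TMM after the filter, comp127674_c0 from 0.010 to -0.068 and -0.011, and comp51360_c1 from -0.0041 to 0.0050 with DESeq2 size factors. Component comp124744_c0, at the 2-fold limit, was on either side of the limit. No paired analysis was possible because both salinities have a lone library, and none could be left out. Counting error is small at this depth, and there are no replicates.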

Other observations

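The identifier numbers of the members were not spread evenly. Of the 179 members, 74 (41.3%) had a number directly next to that of another member, as comp127663_c0 and comp127664_c0 do, against 435 of the 1569 components (27.7%) in the next class of abundance, measured within that class. How the numbers were assigned the sources used here do not say.

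For members with 1 transcript, the log2 fold by TPM differed from that by scaled counts by the same -0.08. In 6 of the 39 members with several transcripts the difference departed from that offset by 0.1 or more. The furthest was comp107617_c0, at -0.20, which holds transcripts of 13464, 13652 and 2249 bases and whose log2 fold was 0.11 by scaled counts and -0.17 by TPM, so that its direction turned.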
